A study of Mus musculus with 16 samples.

Results

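The wounds of db/db mice that received sesame oil alone (the db/db + vehicle group) were compared with those of untreated db/db mice (the db/db group) on the arrays labelled day 14. The comparison took 4 arrays, chosen by their labels, of the 16 arrays of the study. All 4 came from female db/db mice of the strain C57BLKS/J Iar-+Leprdb/+Leprdb, 10 weeks old when included, which carry the Lepr db mutation on both copies of the leptin receptor gene and are obese and diabetic. Full-thickness wounds had been punched through the skin of the back down to the panniculus carnosus, the thin muscle sheet under the skin, and covered with a dressing. The oil was applied to the wound daily in the db/db + vehicle group, while the db/db group received no treatment, so that the oil and its daily application cannot be told apart. Values from db/db mice given estradiol benzoate in the same oil (db/db + estrogen) and from female C57BL/6J mice without treatment (WT), a different strain, stand beside some of the results. RNA was made from the homogenised wound with the intact skin around it and read in 1 colour, with 2 arrays per group, which the series describes as biological replicates without saying whether material was pooled. The tissue holds many cell types, so that fewer cells of a type and less RNA per cell cannot be told apart. Which collection day the arrays come from is uncertain, because values that the study prints under its earlier day were found on arrays carrying the later label, and arrays are named here by their labels.

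One slide carried the pair of db/db arrays together with db/db + vehicle replicate 1, while db/db + vehicle replicate 2 lay on another slide. The signal at the 75th percentile was 2352 and 2548 on the db/db arrays and 2435 and 2423 on the db/db + vehicle arrays, and 0 spots were saturated. Of all probes, 74.0% and 70.1% were well above background on the db/db arrays and 75.9% and 74.6% on the db/db + vehicle arrays. Replicate arrays differed by more than 2-fold at 3.02% of the probes in the db/db group and at 3.33% in the db/db + vehicle group. As a check of the tissue, 41 marker genes of the cell types of skin were looked up. Of these, 39 were named on the array and 38 were well above background on all 4 arrays, the exception being Krt25, a hair follicle keratin, on 0 of them. All levels below are log2 signals relative to the 75th percentile of the same array, and all fold changes set db/db + vehicle over db/db. They compare a gene with itself between groups and not with other genes.

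Testing was limited to the 29043 of 39429 probes that stood well above background on the 2 arrays of the db/db group, of the db/db + vehicle group or of both. A gene is said to have risen or fallen when limma's unadjusted two-sided p was below 0.05 and the fold change above 2, the thresholds of the study, and the p-values given are those adjusted over all probes tested by the Benjamini-Hochberg procedure. This rule called 2182 probes, or 7.51%. Of these, 1543 were higher with oil, or 5.31% of those tested, and 639 were lower, or 2.20%. Every count of risen or fallen genes of a list below is to be read beside these shares. Over all probes tested, the log2 fold change had a median of 0.06 and an SD of 0.681. At 375 of the 1543 higher calls no db/db array was well above background, and at 59 of the 639 lower calls no oil array was. With another background correction, limma's normexp, 712 probes were higher and 488 lower, which moved the share of higher calls from 70.7% to 59.3%. After adjustment 56 probes remained, or 0.193%, 40 of them higher and 16 lower, but only 1 to 10 when any 1 of the 4 arrays was left out. Pgr stayed past the adjusted threshold without any 1 of the 4 arrays, and with all of them most of the genes named below did not pass it. The groups did not overlap at 65.7% of all probes tested. They did not overlap at 2179 of the 2182 called probes either, which follows largely from the thresholds of the call and adds no support to it. With 2 arrays against 2, an exact permutation test cannot give a two-sided p below 0.333.

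Estrogen acts through nuclear receptors, chiefly the product of Esr1, which on binding the hormone attach to DNA directly or through other factors and switch target genes on. The progesterone receptor gene Pgr and Greb1, a cofactor of the receptor, are textbook targets in breast and uterus. In skin, estrogen is known to act on keratinocytes, fibroblasts and immune cells. Sesame oil consists mainly of triglycerides of unsaturated fatty acids and served in the study as the carrier of the hormone. The 4 sequences below show the genomic stretches just before the transcription starts of the estrogen targets Pgr and Greb1, of Uts2 and of Hmgcs1. Hmgcs1 is a sterol synthesis gene. Greb1, Uts2 and Hmgcs1 were picked because their stretches hold a match to a motif, while the Pgr stretch holds none. All 4 are from RefSeq on build GRCm38.p6 and hold the 250 bases before the annotated start, 5′ to 3′ on the strand of the gene.
Pgr, chr9:8899583-8899832, plus strand: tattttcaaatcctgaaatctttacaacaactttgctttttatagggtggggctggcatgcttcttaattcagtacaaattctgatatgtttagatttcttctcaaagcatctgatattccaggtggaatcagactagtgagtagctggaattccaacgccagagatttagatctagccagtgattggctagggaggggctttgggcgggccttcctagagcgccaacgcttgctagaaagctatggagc
Greb1, chr12:16800887-16801136, minus strand: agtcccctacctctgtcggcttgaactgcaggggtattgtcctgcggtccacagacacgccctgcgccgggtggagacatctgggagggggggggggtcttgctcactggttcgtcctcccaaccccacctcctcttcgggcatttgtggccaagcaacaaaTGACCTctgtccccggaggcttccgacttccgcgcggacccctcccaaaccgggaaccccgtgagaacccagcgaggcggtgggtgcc
Uts2, chr4:150996847-150997096, plus strand: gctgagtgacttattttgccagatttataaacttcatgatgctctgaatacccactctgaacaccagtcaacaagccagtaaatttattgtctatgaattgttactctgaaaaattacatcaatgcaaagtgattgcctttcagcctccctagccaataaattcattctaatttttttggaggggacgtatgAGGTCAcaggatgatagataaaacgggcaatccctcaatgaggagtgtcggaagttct
Hmgcs1, chr13:119690101-119690350, plus strand: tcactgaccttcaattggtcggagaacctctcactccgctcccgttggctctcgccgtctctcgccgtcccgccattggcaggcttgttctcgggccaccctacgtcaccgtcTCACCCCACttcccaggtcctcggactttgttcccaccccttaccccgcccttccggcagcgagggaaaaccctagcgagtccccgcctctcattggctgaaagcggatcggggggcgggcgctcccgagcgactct
Capitals mark matches to motifs that were searched on both strands. In Greb1 and Uts2 they are one arm of the estrogen response element, AGGTCA or its complement TGACCT, which began 88 and 58 bases before the start. In Hmgcs1 they are a core of the sterol response element, TCACNCCAC or GTGGNGTGA, which began 137 bases before the start. A further such arm in the Hmgcs1 stretch is not in capitals. The single arm was in 4607 of 32851 promoters of this length, or 14%, and the sterol core in 346, or 1.05%. The full palindromic estrogen response element was in 21 promoters, or 0.0639%, and in none of the 4 shown. Most of the stretches searched held no match. Of 11 stretches of 9 genes that rose with Pgr, itself included, 2 held the single arm, both shown here, and among them Ptpn5, Ngfr, Bmp8a, Akr1c14 and Tmem229a held none. Of 4 stretches of sterol synthesis genes, that of Hmgcs1 held the sterol core and those of Idi1, Lss and Msmo1 did not. A match describes the letters only. Greb1 had a second annotated start, whose stretch held no match.

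Pgr had the smallest adjusted p of all probes tested and Ptpn5 the second, and the estrogen target Greb1 rose with them. Pgr was at −9.66 and −9.14 on the db/db arrays and at −2.45 and −1.53 on the db/db + vehicle arrays. Both db/db signals were too dim to stand well above background and both oil signals were not, so that it rose at least 38.5-fold (log2 fold change 7.41, SE 0.36, adjusted p = 4.98e-05). A second, dimmer probe of the gene gave 3.81 on the log2 scale (adjusted p = 0.0512). For every bound of this kind, the dimmer group was raised on each array to the faintest signal that still counted as well above background, unless the probe was brighter than that, and the mean of the brighter group was set against it. On the db/db + estrogen arrays Pgr was at −1.31 and −0.63, and on the WT arrays at −9.84 and −9.19. The 4 arrays of the groups that received oil, with or without hormone, therefore lay above the other 4 without overlap. Both estrogen arrays also lay above both oil arrays. Between estrogen and oil the log2 difference was 1.02 (SE 0.36, adjusted p = 0.87). It exceeded a 2-fold change but did not pass after adjustment.

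Greb1 was at −4.66 and −3.85 on the db/db arrays and at 0.50 and 1.87 on the db/db + vehicle arrays. It rose 43.5-fold (log2 5.44, SE 0.53, adjusted p = 0.00932), and another probe of the gene also rose (log2 2.68, adjusted p = 0.025). Its levels were 2.01 and 2.33 with estrogen, just above both oil arrays, and −1.85 and −1.87 in WT, above the untreated db/db arrays. Ptpn5, a tyrosine phosphatase best known from the brain, was at −4.73 and −4.26 in db/db and at −0.34 and 0.53 with oil. The groups were far apart, and the gene rose 24.1-fold (log2 4.59, SE 0.35, adjusted p = 0.00209). Its estrogen arrays stood at 0.63 and 0.80.

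Several further genes had the same order of groups, with both oil arrays above both untreated arrays. Akr1c14, a hydroxysteroid dehydrogenase, was at −3.34 and −4.71 in db/db and at −1.04 and −0.29 with oil, a 10.2-fold rise (log2 3.35, SE 0.49, adjusted p = 0.041). Bmp8a, a bone morphogenetic protein ligand, was at −3.60 and −3.83 without oil and at −1.08 and −0.21 with it. It rose 8.40-fold (log2 3.07, SE 0.41, adjusted p = 0.0319). Tmem229a, a membrane protein gene, rose 5.87-fold from −3.49 and −4.05 to −1.52 and −0.92 (log2 2.55, SE 0.32, adjusted p = 0.0256). Ngfr, the low-affinity neurotrophin receptor, was at −2.35 and −2.52 in db/db and at 0.48 and 1.63 with oil. It rose 11.2-fold, with an adjusted p of 0.0982, and its estrogen arrays lay higher still at 2.50 and 2.54. Uts2, which encodes the vasoactive peptide urotensin 2, was too dim on both db/db arrays to stand well above background. Its oil arrays were at −6.98 and −3.19, an uneven pair, and it rose at least 4.51-fold (adjusted p = 0.0829). Adamts19, a metalloprotease gene added to the named genes after its values were seen, was at −6.39 and −8.76 in db/db and at −3.28 and −2.57 with oil (log2 4.65, adjusted p = 0.044), and 1 of the 2 db/db arrays was well above background.

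The receptors themselves were measured without a call. Esr1 was at −2.27 and −2.79 in db/db and at −2.59 and −1.72 with oil, so that the groups overlapped (log2 0.38, SE 0.36, adjusted p = 0.608). Esr2, the second estrogen receptor, gave 0.43 (adjusted p = 0.612), and the membrane receptor gene Gper1 −0.52. Of the 13 genes tested of a list of steroid receptors and targets, 3 rose and 0 fell, with a median log2 fold change of 0.38. The third was Tff1, a trefoil factor and a breast cancer target of estrogen. Its call was lost without db/db replicate 1 (log2 1.23), without db/db + vehicle replicate 1 (0.84) and with normexp, and its estrogen arrays, at −6.25 and −7.21, lay below both oil arrays.

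**Figure D1:**
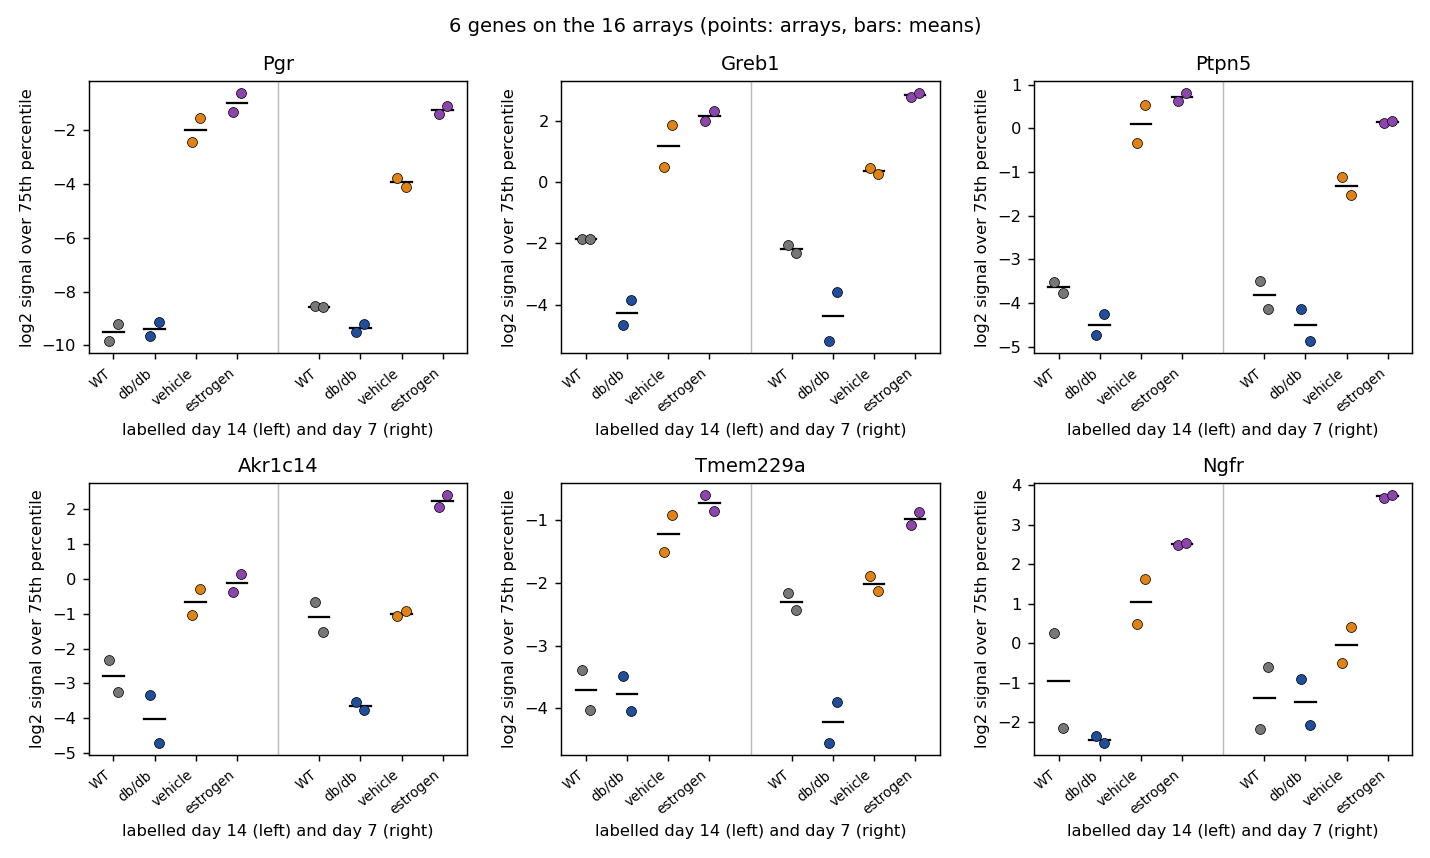
Levels of 6 genes on all 16 arrays, as log2 signal over the 75th percentile of the array, with labelled day 14 on the left and day 7 on the right of each panel. Points are arrays and bars are means of 2. For Pgr, Greb1 and Ptpn5 the oil arrays sit far above the untreated db/db arrays under both labels, and the estrogen arrays sit above the oil arrays.

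Among the other genes of largest change, Marco, a scavenger receptor of macrophages, was at −1.36 and −0.97 in db/db and at 3.59 and 2.70 with oil. It rose 19.8-fold (log2 4.31, SE 0.66, adjusted p = 0.044). Its estrogen arrays were at 2.12 and 1.20, below the oil arrays and above the db/db arrays. Defb3, an antimicrobial beta-defensin of epithelia, rose 21.4-fold from −3.72 and −2.58 to 1.31 and 1.23 (adjusted p = 0.058). Hsd3b6, a steroid dehydrogenase, rose 8.18-fold from −6.71 and −6.57 to −3.45 and −3.77 (adjusted p = 0.0512). Aadacl3, an esterase-like gene, rose 8.88-fold (adjusted p = 0.0623). Cyp1a1, a cytochrome P450 switched on by ligands of the aryl hydrocarbon receptor, was at −3.97 and −4.86 in db/db and at −1.97 and −1.29 with oil, and it rose 6.91-fold (adjusted p = 0.127). It was the single gene called of 18 tested in a list of xenobiotic and oxidative response genes, whose median was 0.18.

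Fewer genes fell than rose. Ly6h, a small membrane-anchored protein of the Ly6 family, was at −0.36 and −0.27 in db/db and at −4.73 and −3.86 with oil. It fell 15.8-fold (log2 −3.98, SE 0.50, adjusted p = 0.029). Cdkn1c, which encodes the cell cycle inhibitor p57, fell 7.80-fold from 4.04 and 3.18 to 1.17 and 0.12 (adjusted p = 0.0369). Mfap4, a protein of elastic microfibrils, was at 5.24 and 5.11 without oil and at 2.98 and 2.72 with it. The pairs were tight, and the gene fell 5.0-fold (log2 −2.32, SE 0.35, adjusted p = 0.041). Mdk, the growth factor midkine, fell from 1.98 and 1.64 to −1.56 and −1.53 (log2 −3.36, adjusted p = 0.0644). Cyp4f18, which inactivates leukotriene B4 in neutrophils, fell 4.62-fold from 2.52 and 3.29 to 0.71 and 0.69 (adjusted p = 0.0319). Gzmd, a granzyme, was well above background on both db/db arrays and on neither oil array, and it fell at least 5.78-fold (adjusted p = 0.0341). On the WT arrays Mfap4 was at 5.31 and 5.44, close to the untreated db/db arrays, while Gzmd, at −9.84 and −9.28, lay near the oil arrays.

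In the epidermis, part of the basal layer genes rose after oil. Basal keratinocytes carry the stem cell factor p63 and anchor the epidermis to the dermis through hemidesmosomes. Of 11 basal genes, 4 rose and 0 fell, with a median log2 fold change of 0.93, and 7 were higher and 1, Dst at −0.74, lower at an unadjusted p below 0.05. The median was 0.51 without db/db replicate 1 and 1.51 without db/db replicate 2. Leaving out 1 array gave 2 to 8 risen genes: 2 without db/db replicate 1 or db/db + vehicle replicate 2, and 8 without db/db replicate 2. Trp63, the gene of p63, was at 0.50 and 1.18 in db/db and at 2.60 and 2.68 with oil. It rose 3.49-fold (log2 1.80, SE 0.38, adjusted p = 0.0884) on the brighter of its probes, while another probe gave 0.02. Col17a1, a collagen of the hemidesmosome, rose 2.87-fold from 1.09 and 1.47 to 2.76 and 2.84 (adjusted p = 0.0887). Krt17, from a separate list of keratins induced by wounding, rose 3.22-fold from 4.73 and 4.82 to 6.38 and 6.54 (adjusted p = 0.131). It was the 1 gene called of the 4 tested in that list, and Krt6a (log2 1.00) and Krt6b (0.82) were not called. The median of these 4 was 0.92, but 0.27 without db/db replicate 1. The basal keratin Krt5 did not pass on its brighter probe (log2 0.93, adjusted p = 0.177) but did on another (1.64, adjusted p = 0.135). In the layers above, 0 of 11 genes of the spinous and granular layers were called by limma, with 0 at an unadjusted p below 0.05 and a median of 0.78.

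Small proline-rich proteins and late envelope proteins, which harden the surface of healing epidermis, were all above the untreated level. The 17 tested genes of this wound-induced group had values from 0.17 to 3.34 with a median of 1.75, and at all 17 the groups did not overlap, against 65.7% of all probes tested. The median was 1.06 without db/db replicate 1. Only 4 of them passed the test, and 1 did without db/db replicate 1 or db/db + vehicle replicate 1 and 2 without db/db + vehicle replicate 2. Sprr2b kept its call, rising 10.1-fold from −3.80 and −3.38 to 0.00 and −0.50 (log2 3.34, SE 0.72, adjusted p = 0.0917). Of 24 tested barrier genes of normal skin, 2 rose (0 without db/db replicate 1 or db/db + vehicle replicate 1 and 1 without db/db + vehicle replicate 2), with a median of −0.10 and values on both sides of 0. The lists were not tested against each other. Of 13 tested antimicrobial genes, 4 rose, all of them defensins, and 0 fell. Values lay above 0 at 10 of them and below at 3, and 1 was lower at limma's unadjusted p below 0.05. The median of the list was 0.96, but 0.06 without db/db replicate 1. Beside Defb3, Defb1 rose 4.49-fold from −1.11 and −0.13 to 1.33 and 1.77 (adjusted p = 0.14), and Defb2 rose 5.55-fold from −6.83 and −6.66 to −4.84 and −3.71 (adjusted p = 0.116), a call that normexp did not keep. Defb6 rose 6.26-fold but lost its call without db/db replicate 2 (log2 2.17) or db/db + vehicle replicate 2 (2.23).

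The sebaceous gland makes the wax esters and long-chain lipids of sebum. Of 17 genes tested of a sebaceous list, 10 rose and 0 fell, with a median of 1.32, against 5.31% of all probes that were higher. The count was 6 without db/db replicate 2 or db/db + vehicle replicate 2. Elovl3, which lengthens fatty acids in sebocytes, was at −0.35 and −0.79 in db/db and at 2.01 and 2.30 with oil. Both oil arrays were higher, and the gene rose 6.62-fold (log2 2.73, SE 0.58, adjusted p = 0.0887). Awat1, a wax ester synthase, rose 5.39-fold from −1.56 and −1.87 to 0.53 and 0.91 (adjusted p = 0.142). Fa2h, a fatty acid hydroxylase of the skin, rose 4.86-fold from 1.91 and 1.09 to 3.65 and 3.91 (adjusted p = 0.14). Elovl4, Scd3 and Acsbg1, which lengthen, desaturate and activate fatty acids, rose by 1.74, 1.58 and 1.32 on the log2 scale. The sebocyte receptor gene Mc5r was not called (log2 0.21, adjusted p = 0.538).

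Enzymes of cholesterol synthesis, which are controlled together by the sterol-sensing factor SREBP2, also stood higher. Of 20 genes tested, 19 had values above 0, 7 rose and 0 fell, with a median of 0.70. Hmgcs1, an enzyme of the early steps, rose 2.14-fold from 3.78 and 3.67 to 4.89 and 4.75 (adjusted p = 0.124). Idi1, an isomerase of the isoprenoid steps, rose 2.79-fold from 1.88 and 1.95 to 3.54 and 3.26 (adjusted p = 0.0949). Lss, which closes the sterol rings, rose 2.49-fold from −2.20 and −1.80 to −0.47 and −0.90 (adjusted p = 0.069). Msmo1, of the later steps, rose 2.17-fold (adjusted p = 0.112). Sqle, squalene epoxidase, lost its call without db/db replicate 1 (log2 0.88) or db/db + vehicle replicate 1 (0.92). Srebf2, the gene of SREBP2, was not called on either of its probes (log2 −0.53 and 0.46). Among 18 genes of fatty acid oxidation and of the response to fatty acids, 0 were called in either direction by limma, with 2 higher and 0 lower at an unadjusted p below 0.05 and a median of 0.01.

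Hair follicle genes rose in part. Of the genes on the array, 3 regulators of the follicle and 7 hair keratins were too dim to be tested. Of 14 tested regulators, 4 rose and 0 fell, with a median of 0.51. Without the fold threshold, 5 regulators were higher and 3 lower at limma's unadjusted p below 0.05. Of 13 tested hair keratins 3 rose, with a median of 0.66, against 5.31% of all probes that were higher. The counts were 2 regulators without db/db replicate 2, with a median of 0.30, and 1 keratin without db/db replicate 1. Foxn1, a factor of keratinocyte and hair differentiation, rose 3.74-fold from −5.46 and −4.44 to −2.95 and −3.15 (adjusted p = 0.134). Sostdc1, an inhibitor of BMP and Wnt signalling, rose 2.37-fold from −1.48 and −1.04 to 0.08 and −0.11 (adjusted p = 0.107). Krt36, a keratin of the hair and nail, rose 6.25-fold (adjusted p = 0.168). Fgfbp1, a carrier of fibroblast growth factors made by keratinocytes, rose 3.70-fold from −1.22 and −0.40 to 1.08 on both oil arrays (adjusted p = 0.12).

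**Figure D2:**
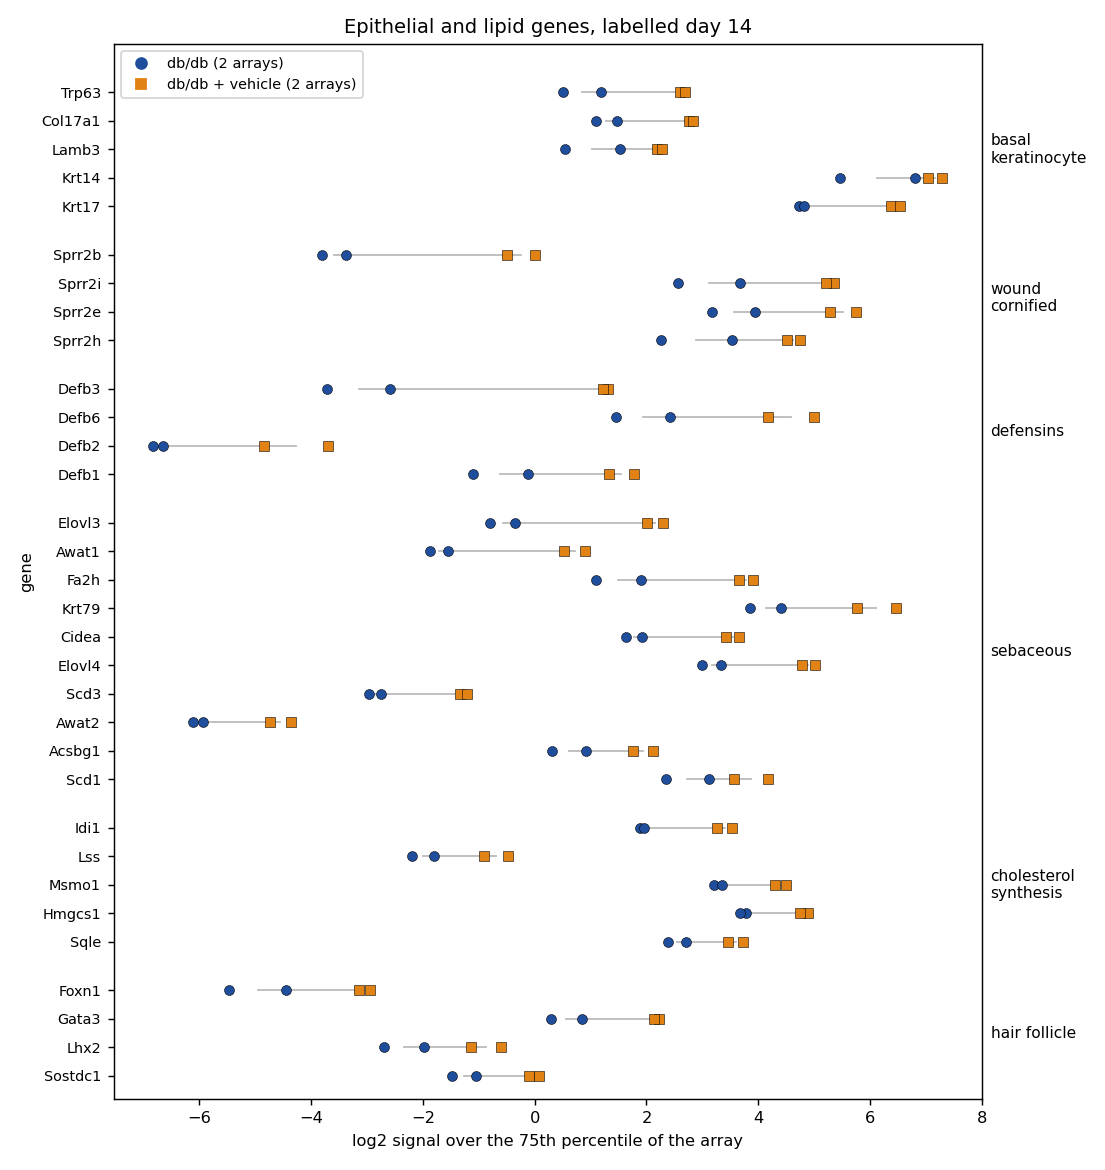
Epithelial and lipid genes on the 4 arrays, as log2 signal over the 75th percentile of the array. Circles are db/db arrays, squares are db/db + vehicle arrays, and grey lines join the means of the groups, from 0.50 and 1.18 to 2.60 and 2.68 for Trp63 at the top. Squares lie to the right of circles for each gene drawn, which are called genes of the lists. Krt17, drawn with the basal keratinocyte genes, belongs to the list of wound-induced keratins.

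Macrophage genes did not move as one. Of 21 tested general macrophage genes, 3 rose and 0 fell, Marco among them, with a median of 0.11, and the pan-macrophage markers Adgre1 (log2 0.38) and Csf1r (0.44) were not called. The count of 3 was 1 without db/db replicate 1 or db/db + vehicle replicate 2. Of 17 tested genes associated with the alternative, or M2, state of macrophages, 7 rose and 0 fell, with a median of 1.20, but 2 rose without db/db + vehicle replicate 2. Rnase2a, an eosinophil-type ribonuclease, was at 1.29 and 1.76 in db/db and at 3.64 and 3.20 with oil. It rose 3.71-fold (log2 1.89, SE 0.40, adjusted p = 0.0897). Folr2, the folate receptor of resident macrophages, rose 2.59-fold from 1.83 and 1.69 to 3.02 and 3.24 (adjusted p = 0.073). Retnla was at −4.38 and −4.12 without oil and at −2.83 and −1.0 with it, and its call was lost without db/db + vehicle replicate 2 (log2 1.42). The other common M2 markers Chil3 (log2 −0.03), Arg1 (0.68) and Mrc1 (0.47) were not called.

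Genes of antigen presentation by MHC class II and of Langerhans cells gave 6 risen and 0 fallen of 17 tested, with a median of 0.99, and 3 risen without db/db replicate 2 and 2, with a median of 0.64, without db/db + vehicle replicate 2. H2-Eb2 rose 4.36-fold from −6.70 and −7.15 to −4.30 and −5.29 (adjusted p = 0.12), with 1 of 2 db/db arrays above background and a call lost with normexp. The invariant chain gene Cd74 lost its call without db/db + vehicle replicate 2 (log2 0.69), without db/db replicate 1 (1.19) and without db/db replicate 2 (1.00). Interferon-induced genes, which mark an antiviral state, gave 7 risen and 0 fallen of 41 tested, with 39 values above 0 and a median of 0.57. The count was 3 without db/db + vehicle replicate 1, with a median of 0.37, and 12 without replicate 2. Ifi27l2a rose 4.51-fold from 3.09 and 2.29 to 4.95 and 4.78 (adjusted p = 0.0981), and Oasl1 rose 2.34-fold from 0.44 and 0.17 to 1.75 and 1.33 (adjusted p = 0.0997).

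Cytokines moved both ways. Of 25 tested inflammatory cytokine genes, 5 rose and 2 fell, and of 15 tested CC chemokine genes 3 rose and 2 fell. The 5 risen cytokine genes became 2 without db/db + vehicle replicate 1 and 3 without db/db replicate 2 or db/db + vehicle replicate 2, and the 3 risen chemokine genes became 1 without db/db replicate 1 or db/db + vehicle replicate 2. Il17f, a cytokine of type 17 lymphocytes, rose 4.46-fold from −6.46 and −6.79 to −4.27 and −4.67 (adjusted p = 0.118), a call not kept with normexp. Ccl17, which attracts T cells, rose 4.16-fold from −4.66 and −4.93 to −3.44 and −2.04 (adjusted p = 0.126). In the other direction, the inflammatory chemokine gene Ccl4 was at 2.17 and 2.33 in db/db and at 0.14 and 0.27 with oil. It fell 4.11-fold (log2 −2.04, SE 0.41, adjusted p = 0.0827), and its neighbour Ccl3 fell 3.44-fold (adjusted p = 0.134). Osm, which encodes oncostatin M, fell 3.50-fold from −1.02 and −1.78 to −2.90 and −3.53 (adjusted p = 0.127). Il1b, interleukin 1 beta, was at 3.80 and 3.75 in db/db and at 0.94 and 1.16 with oil. Although these pairs were tight, its SE of 1.00 came from the spread over all 8 groups, and its call (log2 −2.73, adjusted p = 0.213) was lost without any 1 of the 4 arrays, at −2.62 to −2.84. Tnf (log2 0.00) and Il6 (−1.43) were not called.

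Of 25 tested neutrophil genes, 1 rose and 5 fell, with a median of −0.36. The count of fallen genes was 2 without db/db replicate 2 or db/db + vehicle replicate 2 and 3 without db/db + vehicle replicate 1, and that of risen genes was 0 without db/db replicate 1 and 3 without db/db replicate 2. Ltf, the granule protein lactoferrin, fell 6.55-fold from −3.61 and −2.52 to −5.49 and −6.07 (adjusted p = 0.136). The abundant cytosolic markers S100a8 (log2 0.64) and S100a9 (0.25) were not called. T and natural killer cell genes gave 0 risen and 4 fallen of 24, including Gzmd, and fewer fallen without any 1 of the 4 arrays. As a list they did not lie lower, with 17 values above 0 and 7 below. Their median was 0.23, and 0.16 to 0.38 when 1 array was left out. Of 10 B and plasma cell genes, 0 were called by limma and 0 had an unadjusted p below 0.05.

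In the stroma, values lay mostly below 0. Of 35 tested matrix and myofibroblast genes, 29 were not above 0, 8 fell and 0 rose, with a median of −0.66. At limma's unadjusted p below 0.05 and any fold, 12 were lower and 0 higher. The count of fallen genes was 2 without db/db replicate 1, 4 without db/db + vehicle replicate 1 and 5 without db/db + vehicle replicate 2. Ltbp2, a protein of elastic fibres, was at 2.68 and 3.41 in db/db and at 1.34 and 1.06 with oil, and it fell 3.61-fold (log2 −1.85, SE 0.45, adjusted p = 0.119). Tgfb3, a ligand of the TGF-beta family, fell 2.28-fold from 1.77 and 1.61 to 0.58 and 0.43 (adjusted p = 0.133). Aebp1, a collagen-binding matrix protein, fell 2.19-fold from 6.58 and 6.45 to 5.53 and 5.24 (log2 −1.13, adjusted p = 0.0446), although without db/db + vehicle replicate 2 its change was −0.98. Col1a1 (log2 −0.03) and Col3a1 (0.07), the main dermal collagens, were close to 0, and 0 of 27 collagen genes were called by limma, with 0 higher and 2 lower at an unadjusted p below 0.05. Of 27 tested proteases and inhibitors of the matrix, 5 fell and 0 rose. Mmp14, a membrane protease that activates others, fell 2.27-fold from 2.74 and 2.64 to 1.63 and 1.38 (adjusted p = 0.12). That protease count was 1 without db/db replicate 2 and 2 without db/db + vehicle replicate 2.

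Vessel genes followed the same side. Of 27 tested, 2 had values above 0, 3 fell and 1 rose, with a median of −0.73. At limma's unadjusted p below 0.05 and any fold, 12 were lower and 1 was higher. Cldn5, a tight junction protein of endothelium, was at 1.74 and 1.66 in db/db and at 0.50 and 0.56 with oil. It fell 2.26-fold (log2 −1.17, SE 0.29, adjusted p = 0.118). Dll4, a Notch ligand of sprouting tips, fell 2.10-fold (adjusted p = 0.133), a call lost with normexp or with slide as a fixed block in the model. The gene that rose was Lyve1, a marker of lymphatic vessels that resident macrophages also carry, at 1.84 on the log2 scale (adjusted p = 0.165), which no longer passed without db/db + vehicle replicate 2 (1.46). Pecam1 (log2 −0.86, adjusted p = 0.138), Cdh5 (−0.90) and Vwf (−0.81) were lower at limma's unadjusted p below 0.05. They were not called because their fold changes stayed below 2.

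Immediate early genes, which respond within minutes to stress or handling, gave 4 fallen and 0 risen of 18 tested, with a median of −0.60. The count was 8 without db/db replicate 2 and 2, with a median of −0.34, without db/db replicate 1. Fosb, a partner of Jun, was at 3.51 and 2.23 in db/db and at −0.32 and 0.07 with oil. It fell 7.96-fold (log2 −2.99, SE 0.74, adjusted p = 0.12). Nr4a1, an orphan nuclear receptor, fell 4.42-fold from 5.22 and 4.31 to 2.85 and 2.40 (adjusted p = 0.132). Fos itself was not called (log2 −0.64, adjusted p = 0.536). Slc2a3, a glucose transporter of white blood cells and neurons, fell 4.59-fold from 0.54 and 1.21 to −1.88 and −0.76 (adjusted p = 0.0954) and was the single gene called of 22 in a list of glycolysis and hypoxia genes.

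**Figure D3:**
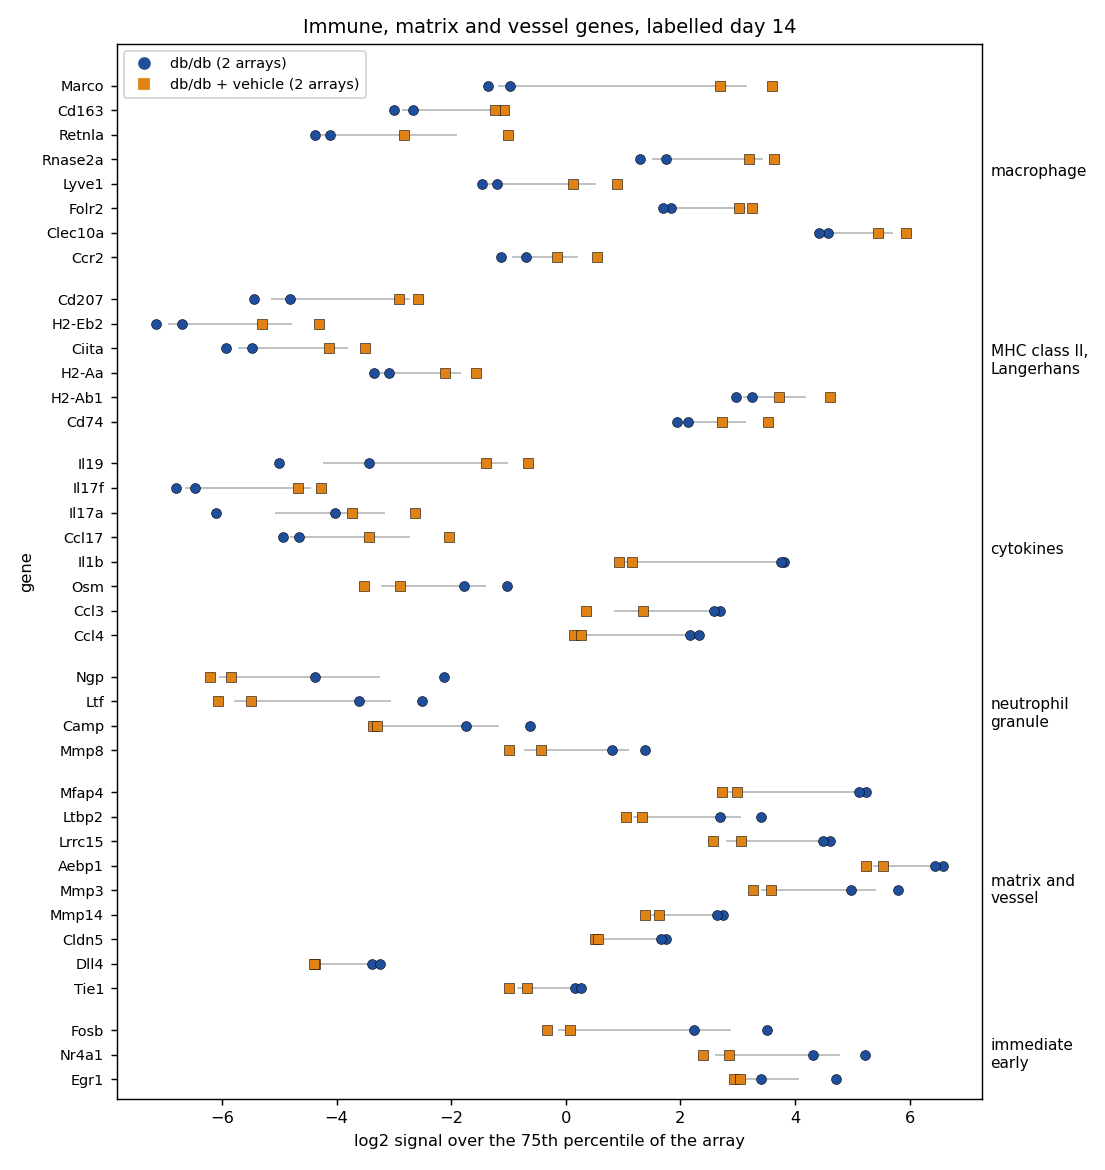
Immune, matrix, vessel and immediate early genes on the 4 arrays, as log2 signal over the 75th percentile of the array. Circles are db/db arrays, squares are db/db + vehicle arrays, and grey lines join the group means. Squares lie to the right for Marco, which went from −1.36 and −0.97 to 3.59 and 2.70, and to the left for Ccl4, Mfap4 and Fosb.

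The largest folds among the named genes of the array were falls of muscle genes. Of 13 tested genes of slow skeletal muscle fibres, 5 fell and 0 rose, with a median of −1.49, but the 5 calls became 0 without db/db replicate 1, 1 without db/db + vehicle replicate 1 and 3 without either of the other arrays. Myl2, a light chain of slow and heart myosin, was at 4.21 and 2.52 in db/db and at −6.02 and −4.11 with oil. Its log2 fold change was −8.43 with an SE of 3.0 (adjusted p = 0.202), and the call was lost without db/db replicate 1 (−7.58) or db/db + vehicle replicate 1 (−7.47). Its levels on the db/db + estrogen arrays were −4.80 and 4.50, so that 1 array of that group lay with the untreated wounds and the other with the oil wounds. Igfn1, a protein of muscle fibres, was not well above background on either oil array and fell at least 73.9-fold (log2 −7.58, SE 2.12, adjusted p = 0.139). Dupd1, a phosphatase of skeletal muscle, fell 25.3-fold from 0.80 and 0.09 to −3.84 and −4.59 (adjusted p = 0.133). Of 16 tested genes of fast fibres 0 were called by limma and 0 had an unadjusted p below 0.05, although all 16 values lay below 0, with a median of −1.06 that was −0.64 without db/db replicate 1 and −1.72 without db/db replicate 2. The fast myosin gene Myh4 was at 6.69 and 6.23 without oil and at 3.26 and 3.20 with it (log2 −3.23, adjusted p = 0.308).

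The median level of the slow fibre genes was 2.64 and 2.09 on the db/db arrays and −0.05 and 0.18 on the oil arrays. Among the other arrays of that label it was −0.44 and 3.72 with estrogen and −1.23 and 0.58 in WT, and on the oil arrays labelled day 7 it was 2.00 and −0.78. Replicates of one group could thus lie as far apart as these groups did. A list of 10 genes of mesothelium, the lining of body cavities, was added after its genes were seen among the largest changes, so that its count supports nothing. All 10 values were below 0, 3 genes fell (1 without db/db replicate 2 and 0 without any other array), and the median was −2.40. Upk3b, a marker of mesothelium, was well above background on both db/db arrays, at −3.21 and −4.19, and on neither oil array. It fell at least 13.2-fold (adjusted p = 0.205), and no longer passed without db/db replicate 1, db/db + vehicle replicate 1 or db/db + vehicle replicate 2 (log2 −5.41 to −5.95). The median mesothelial level was −2.42 and −3.18 on the db/db arrays and −5.31 and −4.95 on the oil arrays. In the uneven pairs, the estrogen arrays labelled day 14 (−5.89 and −2.67) and the oil arrays labelled day 7 (−1.79 and −5.35), the array high in slow fibre genes was the one high in these genes. Whether muscle or deeper tissue in the sample had a part in the other differences was not tested.

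**Figure D4:**
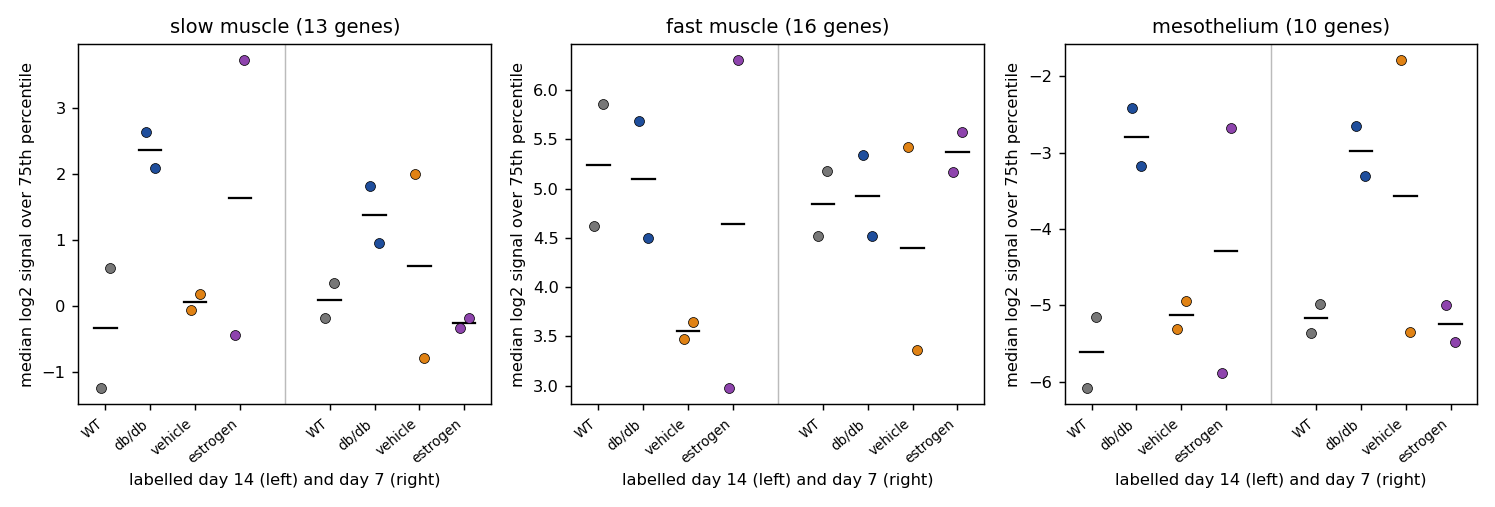
Median levels of 3 gene lists on all 16 arrays, as log2 signal over the 75th percentile of the array, with labelled day 14 on the left and day 7 on the right of each panel. Points are arrays and bars are means of 2. The slow fibre genes sit at 2.64 and 2.09 on the db/db arrays and at −0.05 and 0.18 on the oil arrays labelled day 14, and the estrogen arrays of that label and the oil arrays labelled day 7 are split.

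Other groups of genes showed few calls. Of 20 adipocyte genes 1 rose and 0 fell, although 5 fell without db/db + vehicle replicate 2, with a median of −0.16 that ran from −1.28 without db/db + vehicle replicate 2 to 0.69 without db/db + vehicle replicate 1. The median adipocyte level was 2.23 and 1.42 on the db/db arrays and 0.07 and 2.12 on the oil arrays. Of 33 cell cycle genes 32 had values above 0, but 1 passed the test, or 6 without db/db replicate 2, with a median of 0.47 that was 0.20 without db/db replicate 1 and 0.77 without db/db replicate 2. Mitochondrial respiration and clock genes gave 0 calls by limma among 30 and 17 tested, with medians of −0.04 and −0.19. At an unadjusted p below 0.05 there was 1 respiration gene, which was higher, and there were 2 higher and 3 lower clock genes. Of 22 Schwann cell and nerve genes 3 rose, Ngfr among them, and 1 fell. Mlana, a pigment cell gene, fell by 2.72 on the log2 scale (adjusted p = 0.148), which no longer passed without db/db replicate 1 (−2.21), and the pigment enzyme gene Tyr was not called (−0.12).

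**Figure D5:**
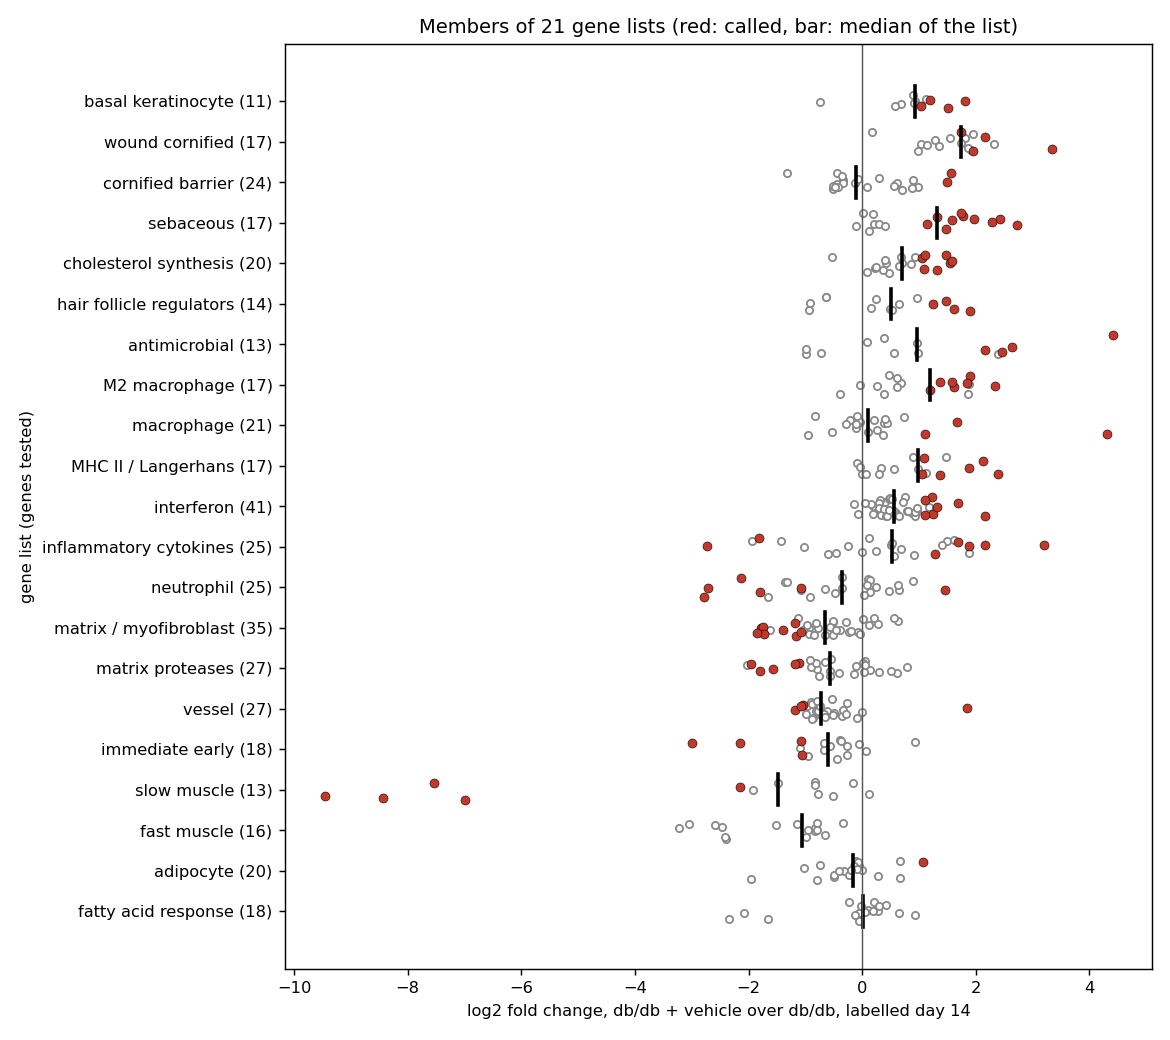
Log2 fold changes of the tested members of 21 gene lists, db/db + vehicle over db/db for labelled day 14, with the number tested in brackets. Red points passed the test, open points did not, and the bar is the median of the list, such as 1.32 for the sebaceous list and −0.73 for the vessel list, beside 0.06 for all probes.

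On the arrays labelled day 7, 2.52% of 29786 probes were higher with oil and 2.30% were lower, and 0.148% passed after adjustment. Because each labelled day was scanned on its own day, the label and the scan cannot be told apart. The estrogen targets Pgr and Greb1 rose there too. They were the 2 risen of 13 tested genes of the steroid list, so that Tff1 was not called. Pgr went from −9.51 and −9.22 to −3.76 and −4.11 (at least 11.1-fold, adjusted p = 0.001). Neither db/db signal was well above background, and its second probe gave a log2 change of 1.42. Greb1 went from −5.19 and −3.57 to 0.45 and 0.28 (log2 4.74, adjusted p = 0.017), and Ptpn5 rose by 3.19 on the log2 scale (adjusted p = 0.017). Adamts19, too dim on both db/db arrays, rose at least 10.5-fold (adjusted p = 0.032). Tmem229a rose by 2.21 (adjusted p = 0.037) and Akr1c14 by 2.66 (adjusted p = 0.074). Ngfr, at 1.44, was not called there (adjusted p = 0.45).

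The difference in oil effect between the labelled days was tested for 30511 probes. At the unadjusted threshold with a fold above 2, 858 probes differed, or 2.81%, and after adjustment limma called 0, with 1523 at an unadjusted p below 0.05 and a smallest adjusted p of 0.0535. The named genes were therefore not shown to differ between the days. Marco, whose effect was 4.31 for labelled day 14, gave 1.28 for labelled day 7 (difference 3.03, SE of the day 7 value 0.66, adjusted p of the difference 0.89), where the db/db arrays themselves were uneven at −0.09 and 2.32. Ltf fell by 6.91 for labelled day 7 (adjusted p = 0.017), against −2.71 for labelled day 14 (difference 4.19, adjusted p = 0.72). Sebaceous genes gave 10 risen of 17 for labelled day 14 and 1 of 17 for labelled day 7, and cholesterol synthesis genes gave 7 and 0 of 20, with medians of 0.70 and 0.59. The wound-induced envelope genes had 4 and 8 of 17 risen, with medians of 1.75 and 1.90, and the interferon genes 7 of 41 and 13 of 40, with medians of 0.57 and 0.82. Slow fibre genes had medians of −1.49 and −0.24, with 5 and 0 fallen.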

How the data were processed

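RNA from wounds of 8 groups of 2 mouse arrays was measured, and groups, labelled days and replicate numbers came from the sample records. The deposited intensity of each spot was made by the authors in Agilent Feature Extraction 11.0.1.1, which subtracted background and corrected spatial trends, and was not scaled between arrays. The same deposited files hold median pixel intensities and marks for saturated, outlying and well detected spots. The authors also deposited a ratio per probe, the signal over the 75th percentile of its array, whose 3 filters are not named in the sources used here.

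Outlying spots were left out, the spots of a probe were averaged, and the log2 signal minus the log2 75th percentile over probes that were not controls was used. RefSeq named 27427 of 39429 probes (69.6%), or 20832 symbols, and each gene was read through the probe of highest mean over the 16 arrays. limma 3.58.1 in R 4.3.3 was fitted with 1 coefficient per group, which left 8 residual degrees of freedom, and the scripts were tested on simulated data. Each adjusted p is limma's, by the Benjamini-Hochberg procedure over the probes tested in that comparison. The comparison, the 43 gene lists (855 entries, 826 of them on the array) and the marker genes were chosen with earlier results of these data known, and the lists were written from general knowledge. The named genes are the 12 called in each direction of largest fold on all 4 arrays and the 8 of smallest p. Up to 4 called members and 2 markers of each list were taken too, with 5 in each direction at a bound. A few were added after their values were seen, among them Adamts19, Folr2, Osm, Tgfb3, Oasl1, Msmo1, Sqle, Srebf2, Scd3 and Elovl4. Acsbg1, Cd74, Arg1, Mrc1, Tnf, Il6, Col3a1, Vwf, Gper1 and Myh4 were added in the same way. Some that the rule names are left out, and some genes are not reported here. Precision is limited by the number of arrays. Alternatives were normexp (offset 50), quantile normalization, other filters on dim probes, a floor, the authors' ratios, a fit of the 4 arrays alone, slide as a fixed or random block (statmod 1.5.0), a replicate block and leaving out each array.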

Additional observations from a re-analysis of the deposited data

How the results depend on the processing

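The count of called probes, 2182, was 1200 with normexp and 1401 to 1957 when 1 array was left out (1401 without db/db replicate 1 and 1437 without db/db + vehicle replicate 1), and it stayed within 1.5 times under the other alternatives. The adjusted count of 56 was 32 with normexp, 25 with quantile normalization, 13 when all 4 arrays had to be well above background, 25 with slide as a fixed block, 2 within the slide of both db/db arrays and 1 to 10 without 1 array (1 without db/db replicate 1, 10 without db/db replicate 2, 7 and 2 without db/db + vehicle replicates 1 and 2). The fit within the slide of both db/db arrays is the same fit as that without db/db + vehicle replicate 2, so that these are a single check. A fit of the 4 arrays alone, with 2 residual degrees of freedom, gave 0, where 2867 probes passed the unadjusted thresholds. With the replicate number as a block, 2176 probes were called and 8 after adjustment. The deviations of the same numbers ran against each other (r = −0.218 over 29044 probes), and with crossed numbers as the block, chosen after this was seen, 2107 and 8 were called. The count of probes that differed between the labelled days, 0, was 1 with quantile normalization, with a filter on all arrays, with a floor and with the authors' ratios, 5 in a fit of only the arrays compared, and 0 to 1 without 1 array. Where these counts moved, the cause was not tested. Of 163 called named genes, 0 changed direction under any alternative, 64 kept their call under all, 86 lost it without 1 of the arrays and 26 with normexp. Medians of 9 of the 43 lists, all small, changed sign under some alternative, among them adipocyte, fatty acid response and cornified barrier.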
